A study of Mus musculus with 9 samples.

Results

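The genes described here are 38 genes of the blood-brain barrier: junction proteins, efflux pumps, carriers and receptors of brain endothelium, together with readouts of Wnt signaling and genes that mark leaky or caveolar endothelium. They were chosen by symbol from a list and not by a cutoff on their values, but with earlier results of these data known. All 38 were listed in each of 9 count tables, which together list 33271 symbols, with 12582 of them in every table after older symbols were mapped.

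Endothelial cells of the brain seal the vessel wall with tight junctions, pump drugs and lipophilic toxins back into the blood through ABC transporters, and import glucose, amino acids, hormones and iron through dedicated carriers and receptors. Wnt signaling through beta-catenin induces and maintains this program, and Lef1, Axin2 and Apcdd1 are targets of that pathway. Fenestrae, whose diaphragms contain Plvap, and abundant caveolae are features of peripheral vessels and of leaky tumor vessels.

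The study implanted patient-derived GBM organoids into the right frontal cortex of female athymic nude mice, which lack a thymus and so most T cells, and collected the brains at the endpoint of tumor growth. In such a patient-derived orthotopic xenograft (PDOX) the tumor is human, so that transcripts assigned to mouse are taken to come from the microenvironment. Mouse cells were read by Drop-seq, which counts unique molecular identifiers (UMIs) at the 3' ends of transcripts of single cells. The libraries were 7 PDOXs of untreated mice, 1 P3 PDOX of a mouse given temozolomide (TMZ, an alkylating drug) by oral gavage, and 1 tumor-free brain of a nude mouse (Nu-NB). Of the untreated PDOXs, the study gives P3, T16 and P13 stronger angiogenic features than the more invasive ones, and it elsewhere calls the growth of P3 intermediate. It names P8, T101 and T192 as examples of invasive growth, and T233 was counted as invasive here because it is not among the angiogenic ones. P3 control mice received the vehicle. T192 and T233 derive from the same patient, each library stands for 1 model, and the strain, sex and brain region are shared by all PDOXs. The study states that the mice shared age and sex, the age itself is not given in the sources used here, and nothing states that libraries pooled animals. FACS was used to isolate the cells of Nu-NB and P8, and MACS with a mouse cell depletion kit was used for the rest. The tables of these 2 libraries also carry more older gene symbols (6 of those mapped, against 3 in each other table), and effects of the sort and of the symbols cannot be told apart. P-values measure the spread between these libraries only.

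After filtering, 14622 cells were kept, between 722 and 2770 per library, and the median cell of a library had 521 to 1303 UMIs. Across the tables, 60 of 33913 barcodes occurred in more than 1 library. Cells were clustered without the 38 genes and without batch correction, and clusters were named from markers that contain none of the 38. Clusters that met the markers of no class, or of none clearly, were left out of the classes. An unnamed one of 139 cells, 136 of them from T101, was led by Cnot2, Gm11407 and Frs2. A cycling cluster (173 cells) and a neuronal-like one (72 cells, 66 from P13) were split from the same larger cluster as unnamed ones. Leading genes there include the pseudogene Rpl34-ps2. None of these held cells of Nu-NB or P8. Whether human transcripts were counted as mouse there was not tested. The endothelial-like class held 2223 cells and 3265844 UMIs, from 35 cells and 17353 UMIs in Nu-NB to 557 cells in T16 and 1517134 UMIs in P13. All 12 endothelial markers, such as Pecam1, Flt1 and Tie1, were detected in the endothelial-like cells of every library. Levels below are CPM, the UMIs of a gene summed over the cells of a class and scaled to a common total. Each UMI stands for the 3' end of 1 transcript, so that levels of different genes are compared in CPM without a correction for length. Intervals are exact 95% Poisson intervals and cover counting error only. In Nu-NB endothelial-like cells the limit that a count of 0 allows was 172.9 CPM taken as 3 UMIs, and 212.6 CPM as the upper end of the Poisson interval.

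Taking the median over the 7 untreated PDOXs, this class had the highest level among the classes for 34 of the 38 genes. That share was 13.2% over the 12582 genes listed in every table and 21.03% over the 6266 of them tested below. The class was highest in each of the 7 PDOXs for 29 of the 38, beside 2.15 and 4.181%. The level was at least 2-fold that of the next class for 29 genes, beside 3.513 and 6.049%. It was at least 10-fold for 10 genes, beside 0.8425 and 1.58%. Because the 38 were listed as barrier genes of brain endothelium, a high share could be foreseen. Cldn5, the main claudin of brain tight junctions, reached a median of 3267 CPM, 43.3-fold the level in mural-like cells. Slc38a5, a carrier of glutamine and other neutral amino acids, reached 595 CPM against 3.51 CPM in myeloid-like cells. Slco1a4, a carrier of bile acids and other organic anions, stood 30.3-fold above the choroid plexus-like class. The medians of other classes are over the PDOXs with at least 10 cells of that class (7 for myeloid-like, mural-like and cycling cells, 6 for astrocyte-like and OPC-like cells, 5 for choroid plexus-like, 3 for ependymal-like and fibroblast-like and 2 for neuronal-like cells), so that the ratios do not always set the same libraries side by side. They describe clusters of the same cells and were not tested.

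**Figure D1:**
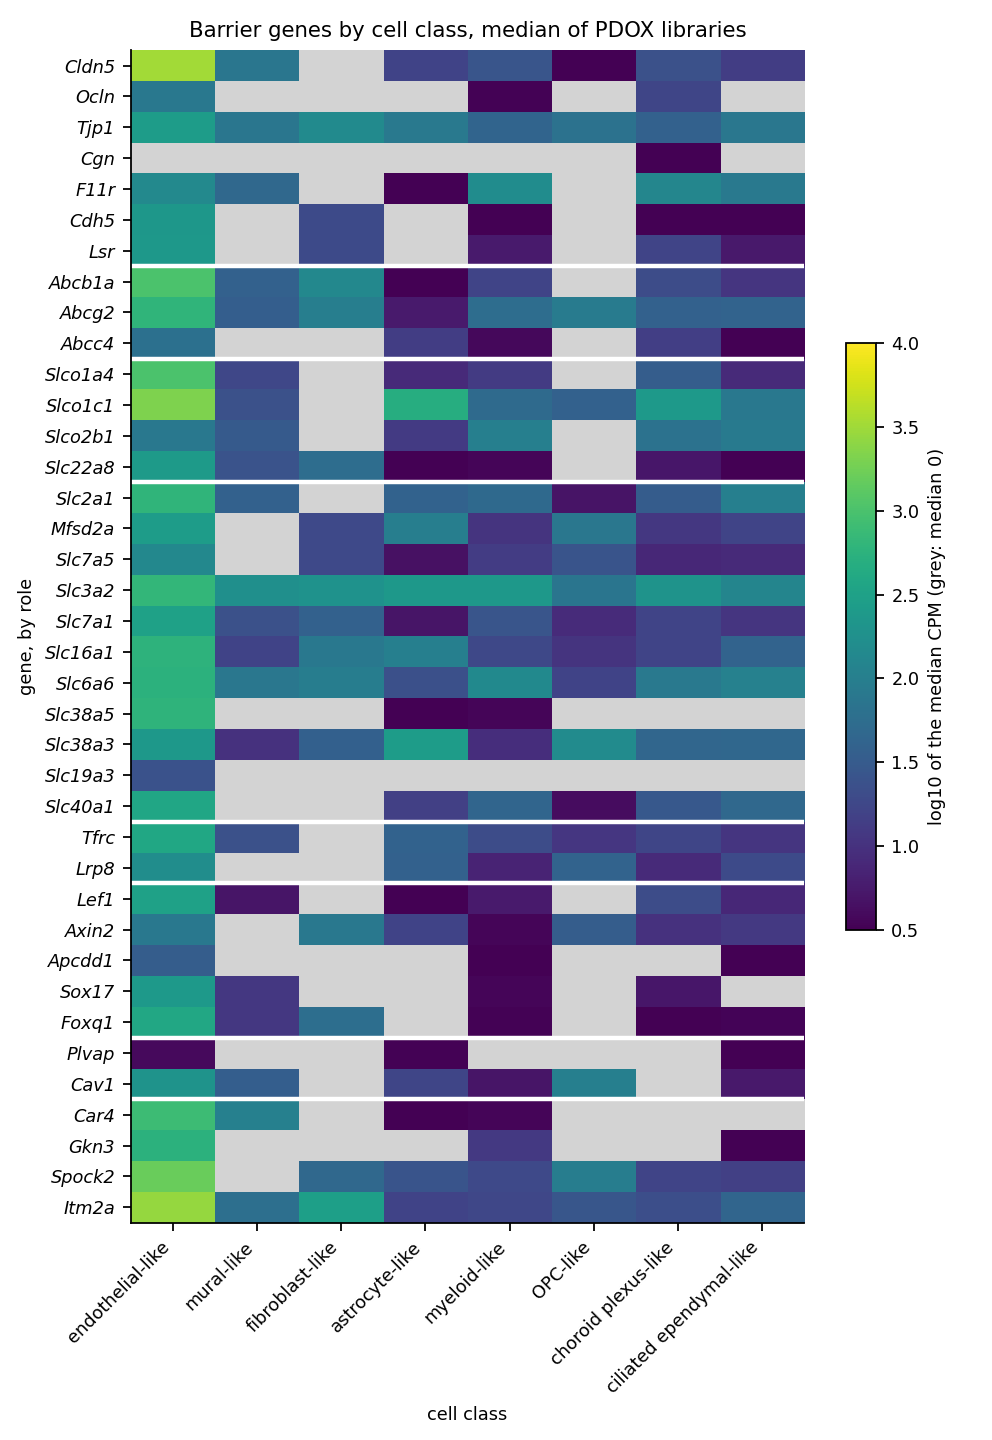
Median CPM over PDOX libraries (color, log10) of the 38 barrier genes in 8 cell classes, with genes grouped by role and grey where the median was 0. The endothelial-like column is the brightest for 34 genes, and F11r, Slco2b1 and Slc38a3 are brighter in myeloid-like or astrocyte-like cells.

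A total of 4 genes had their highest median elsewhere or nowhere. Cgn, which encodes cingulin of the tight junction plaque, had 0 UMIs in endothelial-like cells of every library. F11r, the junctional adhesion molecule JAM-A, had a median of 158 CPM in myeloid-like cells and 142 CPM in endothelial-like cells. Slco2b1, a carrier of steroid sulfates, had 102.5 CPM in myeloid-like cells against 79.6 CPM in endothelial-like cells. Slc38a3, a glutamine carrier, had 271 CPM in astrocyte-like cells against 231 CPM in endothelial-like cells. In single cells thinned to 500 UMIs, Cldn5 was seen in 61.8 to 90.2% of endothelial-like cells of the PDOXs and in 0.391 to 2.5% of myeloid-like cells, which should lack it. Without thinning, the endothelial-like share was 70.7 to 89.5%. The median depth of a library's cells ranged from 404 to 1211 UMIs in endothelial-like and from 469 to 1258 UMIs in myeloid-like cells.

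The first comparison set endothelial-like cells of the 7 PDOXs against Nu-NB. Nu-NB is 1 library, so that tests against it, here and in the other classes, take their spread from the PDOXs alone and do not cover differences between brains. No barrier gene passed the threshold of edgeR's quasi-likelihood test (FDR of at most 0.01 and an absolute log2 fold change of at least 1). Of all 6270 genes tested, 0 were called, so that the background was 0%, while 847 had an unadjusted p under 0.05 and DESeq2 called 2 genes, none of them a barrier gene. Of the 38 genes, 37 passed the filter on low counts (Cgn did not). The fitted change was positive for 23 of the 37, beside 65.69% of all genes. Abcc4, Lrp8 and Plvap had 0 UMIs in Nu-NB, which fixes their sign. TMM scaling gave Nu-NB a factor of 1.65 and set the median log2 fold change of all genes at 0.67, against 0.15 for the barrier genes. With library totals in place of TMM the median of all genes was -0.09, so that the direction of many genes against Nu-NB depends on the scaling.

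By library totals, 18 of the 37 genes (48.65%) were lower in each of the 7 PDOXs than in Nu-NB, beside 39.3% of all genes tested, and 5 (13.51%) were higher in each, beside 29.8%. After division by the TMM factors, 7 genes (18.92%) were lower in each PDOX, beside 20.21% of all genes, and 9 (24.32%) were higher, beside 40.14%. Under both scalings Tjp1, F11r, Slco2b1, Slc6a6, Slc38a3, Lef1 and Apcdd1 were lower and Abcc4, Slc7a5, Slc38a5, Lrp8 and Car4 were higher, where Abcc4 and Lrp8 had 0 UMIs in Nu-NB, so that no scaling could place them otherwise. The share of lower genes under TMM was close to that of all genes.

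**Figure D2:**
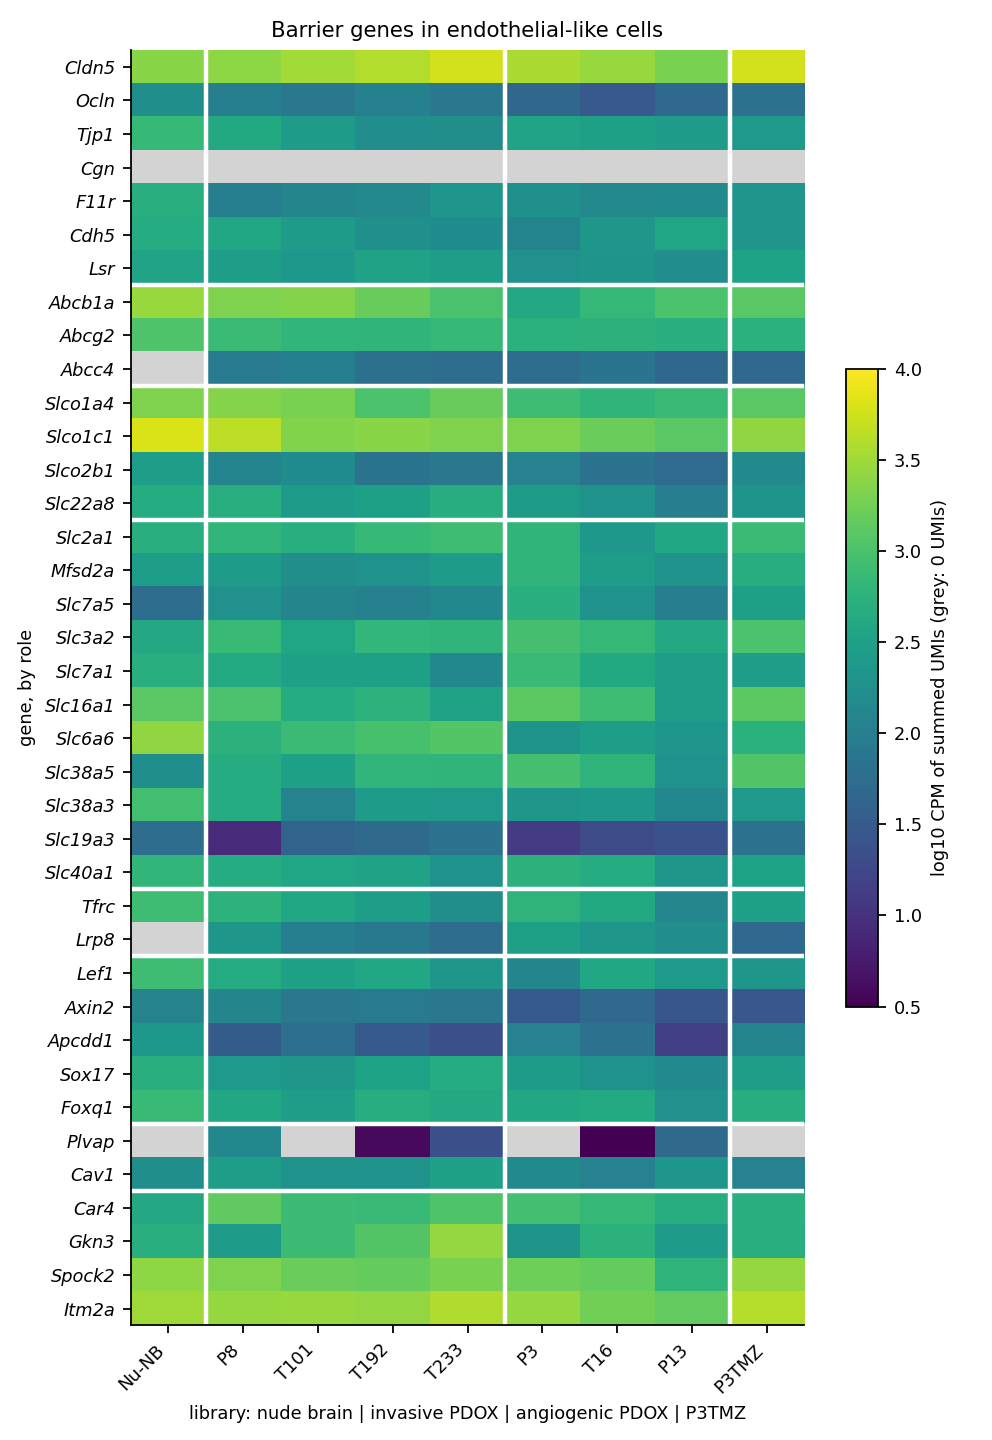
CPM (color, log10) of the 38 barrier genes, grouped by role, in endothelial-like cells of Nu-NB, 4 invasive PDOXs, 3 angiogenic PDOXs and P3TMZ, with grey for 0 UMIs. Slco1c1 is brightest in Nu-NB at 6397 CPM, and Slc6a6 is dimmer in the 3 angiogenic columns than in any other.

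Among the 7 junction genes, 5 were lower than Nu-NB in each PDOX by library totals and none was higher, and after TMM Tjp1 and F11r were lower and Cldn5 was higher. In cells thinned to 500 UMIs, where 11 cells of Nu-NB were left, Ocln and Lsr lay above Nu-NB in each PDOX instead of below it. F11r had 519 CPM in Nu-NB (237 to 985). Its level was 103, 122, 141 and 216 CPM in P8, T101, T192 and T233 and 180, 142 and 149 CPM in P3, T16 and P13. By library totals each PDOX lay under the counting interval of Nu-NB, but after TMM P8 and T101 alone did, and the log2 fold change was -0.85 (SE 0.57, adjusted p = 0.483, edgeR). Tjp1, the scaffold ZO-1 that ties junctions to actin, had 692 CPM in Nu-NB and 165 to 420 CPM in PDOXs. Cdh5, the VE-cadherin of adherens junctions, had 461 CPM in Nu-NB and 118 to 403 CPM in PDOXs. It was not lower in each PDOX with no doublet removal (361 CPM in Nu-NB and up to 381 CPM in PDOXs), in cells chosen by markers (381 and up to 421 CPM), after thinning (182 and up to 433 CPM) or in the first cluster (461 and up to 467.5 CPM). Tjp1 lay below the interval of Nu-NB in 6 of 7 PDOXs and Cdh5 in 3 of 7 by library totals, and in 2 and 0 of 7 after TMM. Ocln (occludin) had 173 CPM in Nu-NB, from only 3 UMIs, and 29.8 to 109.6 CPM in PDOXs. Lsr, which organizes junctions where 3 cells meet, had 346 CPM against 163 to 325 CPM. With no doublet removal it had 271 CPM in Nu-NB and up to 299.5 CPM in PDOXs, so that Ocln, Tjp1 and F11r were then the junction genes lower in each PDOX, while Cldn5, at 1896 CPM in Nu-NB and 1916 to 5808 CPM in PDOXs, was higher in each. Cldn5 differed from these, with 2420 CPM in Nu-NB and higher values in 6 of 7 PDOXs, up to 5798 CPM in T233, at an adjusted p of 0.386 (edgeR).

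Among the pumps and organic anion carriers, Abcb1a, Abcg2, Slco1c1 and Slco2b1 were lower than Nu-NB in each PDOX by library totals and Abcc4 was higher. Slco1c1, which carries thyroid hormone into the brain, had 6397 CPM in Nu-NB (5262 to 7703). In the PDOXs it had 4508, 2164, 2365 and 2092 CPM in P8, T101, T192 and T233 and 2122, 1592 and 1281 CPM in P3, T16 and P13. Every PDOX lay below the interval of Nu-NB by library totals and 6 of 7 after TMM, and P8, the other FACS library, was nearest to it. The edgeR log2 fold change was -0.58 (SE 0.54, adjusted p = 0.616). Abcb1a, the P-glycoprotein pump of mouse brain endothelium, had 2881 CPM in Nu-NB and 412 to 2218 CPM in PDOXs. Abcg2, the breast cancer resistance protein, had 1095 CPM in Nu-NB and 533 to 780 CPM in PDOXs. Abcb1a lay below the interval of Nu-NB in 6 of 7 PDOXs and Abcg2 in 5 of 7 by library totals, and in 4 and 0 of 7 after TMM. In thinned cells Slco1c1 (3273 CPM in Nu-NB, 1836 to 4639 CPM in PDOXs) and Abcg2 (727 CPM, 583 to 951 CPM) were not lower in each PDOX. Slco1a4 had 2132 CPM in Nu-NB, and P8 alone exceeded it at 2246 CPM. Abcc4, another drug pump, had 0 UMIs in Nu-NB and 46.8 to 103.6 CPM in PDOXs, values under the limit that a count of 0 allows. Slco2b1 had 288 CPM in Nu-NB and 52.7 to 158 CPM in PDOXs, and Slc22a8, the organic anion transporter OAT3, had 461 CPM against 98.9 to 514 CPM.

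Of the 11 nutrient and ion carriers, 3 were lower and 2 higher than Nu-NB in each PDOX by library totals, and after TMM 2 were lower (Slc6a6 and Slc38a3) and 4 higher (Mfsd2a, Slc7a5, Slc3a2 and Slc38a5). Slc6a6, the carrier of taurine and beta-alanine, had the lowest ratio among the carriers. Nu-NB had 2651 CPM (1941 to 3536), the invasive P8, T101, T192 and T233 had 557, 762, 959 and 1171 CPM, and the angiogenic P3, T16 and P13 had 202, 279 and 216 CPM. By library totals all PDOXs lay below the interval of Nu-NB, and after TMM all but T233 did, at a log2 fold change of -1.26 (SE 0.78, adjusted p = 0.454, edgeR). Slc38a3 had 864 CPM in Nu-NB (484 to 1426) and 116 to 471 CPM in PDOXs. Slc40a1, the iron exporter ferroportin, had 634 CPM and 193 to 565 CPM, but 497 CPM and 185 to 520.1 CPM with no doublet removal.

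Slc38a5 and Slc7a5 were higher than Nu-NB in each PDOX by library totals, and Slc3a2 in 6 of 7. Slc38a5 had 173 CPM in Nu-NB, from 3 UMIs with an interval of 35.7 to 505 CPM. It had 463, 317, 642 and 625.3 CPM in the invasive and 925, 595 and 191 CPM in the angiogenic PDOXs, so that 4 of 7 exceeded the interval by library totals and 6 of 7 after TMM (adjusted p = 0.351, edgeR). Slc3a2, the heavy chain shared by several amino acid exchangers, had 403 CPM in Nu-NB and 360 to 925 CPM in PDOXs (adjusted p = 0.362, edgeR). Its light chain Slc7a5, the LAT1 carrier of large neutral amino acids, had 1 UMI in Nu-NB and 100 to 530 CPM in PDOXs, with the top value in P3, and after thinning Nu-NB (182 CPM) lay within the PDOX values. Slc2a1, the GLUT1 glucose carrier, had 519 CPM in Nu-NB and 234 to 818 CPM in PDOXs, on both sides of Nu-NB. Mfsd2a, the carrier of lysophospholipids that restrains vesicle transport, had 288 CPM and 171 to 609 CPM. Slc16a1, the lactate carrier MCT1, had 1268 CPM and 289 to 1333 CPM, and Slc7a1, a carrier of arginine and other cationic amino acids, had 519 CPM and 136 to 719 CPM. Slc19a3, a thiamine carrier, had 1 UMI in Nu-NB and at most 68.2 CPM in any PDOX.

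Of the receptors, by library totals Tfrc was lower and Lrp8 higher than Nu-NB in each PDOX, while after TMM neither was lower. Tfrc, the transferrin receptor, had 807 CPM in Nu-NB and 134 to 601 CPM in PDOXs, and after thinning it too was higher in each PDOX. Lrp8, a receptor of reelin and apolipoprotein E, had 0 UMIs in Nu-NB and 56.8 to 311 CPM in PDOXs, with P8, P3 and T16 above both limits that a count of 0 allows and the other 4 PDOXs under them by library totals. Of the 5 Wnt readouts and transcription factors, Lef1, Apcdd1, Sox17 and Foxq1 were lower than Nu-NB in each PDOX by library totals. Lef1, a nuclear partner of beta-catenin, had 807 CPM in Nu-NB (441 to 1354). Its PDOX values were 454, 323, 388 and 227 CPM in P8, T101, T192 and T233 and 127, 395 and 247 CPM in P3, T16 and P13, at a log2 fold change of -0.47 (SE 0.59, adjusted p = 0.730, edgeR). Only P8 lay within the interval of Nu-NB by library totals, and 5 of 7 PDOXs did after TMM. Apcdd1, a Wnt target that dampens the pathway, had 4 UMIs in Nu-NB (230.5 CPM) and 14.5 to 114 CPM in PDOXs. Sox17 and Foxq1, transcription factors of brain endothelium, had 519 and 749 CPM in Nu-NB and at most 466.1 and 482 CPM in PDOXs. Sox17 was not lower in each PDOX within the first endothelial cluster, which holds all Nu-NB cells (up to 684 CPM against 519), nor with no doublet removal (up to 469 against 451 CPM). Axin2, a direct Wnt target, had 2 UMIs in Nu-NB and 27.7 to 129 CPM in PDOXs.

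Plvap, the diaphragm protein, had 0 UMIs in Nu-NB, T101 and P3 and 137, 3.92, 22.7, 2.71 and 51.4 CPM in P8, T192, T233, T16 and P13. With no doublet removal Nu-NB had 271 CPM of Plvap, above each PDOX (0 to 140.1 CPM). Cav1, the coat protein of caveolae, had 173 CPM in Nu-NB, from 3 UMIs, and 111 to 318 CPM in PDOXs, and it was higher than Nu-NB in each PDOX after TMM but lower in each after thinning. Of the remaining brain endothelial genes, Car4, a carbonic anhydrase of the capillary surface, had 403 CPM in Nu-NB (162 to 831). Its values were 1388, 804, 728 and 1080 CPM in P8, T101, T192 and T233 and 912, 682 and 472 CPM in P3, T16 and P13. Every PDOX was higher, at a log2 fold change of 2.01 (SE 0.69, adjusted p = 0.311, edgeR), which is 1.26 with library totals. Spock2, a secreted proteoglycan, had 2536 CPM in Nu-NB and 605 to 2117 CPM in PDOXs. Itm2a, a membrane protein, had 3169 CPM and 1428 to 3774 CPM, and Gkn3, an arterial marker in brain, had 519 CPM and 206 to 2785 CPM.

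The second comparison set the 3 angiogenic against the 4 invasive PDOXs, within endothelial-like cells. Slc6a6 fell, and 8 further barrier genes had an unadjusted p under 0.05 without passing the threshold, so that 9 of the 35 tested (25.71%) had such a p, beside 593 of all 4074 genes (14.56%). Of these, Slco1a4, Abcb1a, Axin2, Ocln, Gkn3, Slc22a8 and Lsr were lower and Lrp8 was higher in angiogenic PDOXs. The angiogenic mean CPM was lower than the invasive mean for 3 of 3 pumps, 4 of 4 organic anion carriers, 4 of 5 Wnt readouts and transcription factors and 4 of 11 nutrient carriers. Over the 38 genes it was lower for 25 and higher for 12, and among those tested it was lower for 23 of 35 (65.71%), beside 53.73% of all genes.

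In total 35 barrier genes were tested, and Cgn, Slc19a3 and Plvap were too low. At an FDR of at most 0.05, edgeR called 1 of 35, beside 66 of all 4074 genes (1.62%), 28 higher and 38 lower. The median log2 fold change was -0.42 for the barrier genes and -0.01 for all genes. By library totals 7 of 35 (20%) were lower in every angiogenic than in every invasive PDOX, beside 6.95% of all genes, and 0 were higher, beside 5.92%. After TMM these were 5 genes (14.29%), beside 5.081% of all genes, and 0, beside 9.254%. Without P3, whose growth the study also calls intermediate, 13 of 35 (37.14%) were lower by library totals, beside 9.01% of all genes, while edgeR then called 1 gene, which was no barrier gene.

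For Slc6a6, whose gene spans chr6:91684053-91759066 on the plus strand (GRCm38), the invasive mean was 862 ± 263 CPM (SD, n = 4) and the angiogenic mean 232 ± 40.9 CPM (SD, n = 3). The groups did not overlap, since the lowest invasive value was 557 CPM in P8 and the highest angiogenic value 279 CPM in T16. The log2 fold change was -1.89 (SE 0.34, adjusted p = 0.0318, edgeR), which ranked 7th among all genes by p. Among the 6 MACS libraries alone, that is without P8, it was -2.08 (adjusted p = 0.0149, edgeR). The call was lost without T233, whose growth is not named (adjusted p = 0.0673, edgeR), without P3 (0.123), without T16 (0.118) and without P13 (0.0511), and also with T192 and T233 of the same patient summed (0.0579) or left out together (-1.43, 0.0672). The change itself stayed between -2.08 and -1.65 whichever PDOX was left out. In cells thinned to 500 UMIs, Slc6a6 was seen in 25.8 to 47.5% of invasive and 11.9 to 17.9% of angiogenic endothelial-like cells, beside 4.69 to 11.3% of myeloid-like cells. The unthinned endothelial-like share was 14.3 to 40.8%.

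**Figure D3:**
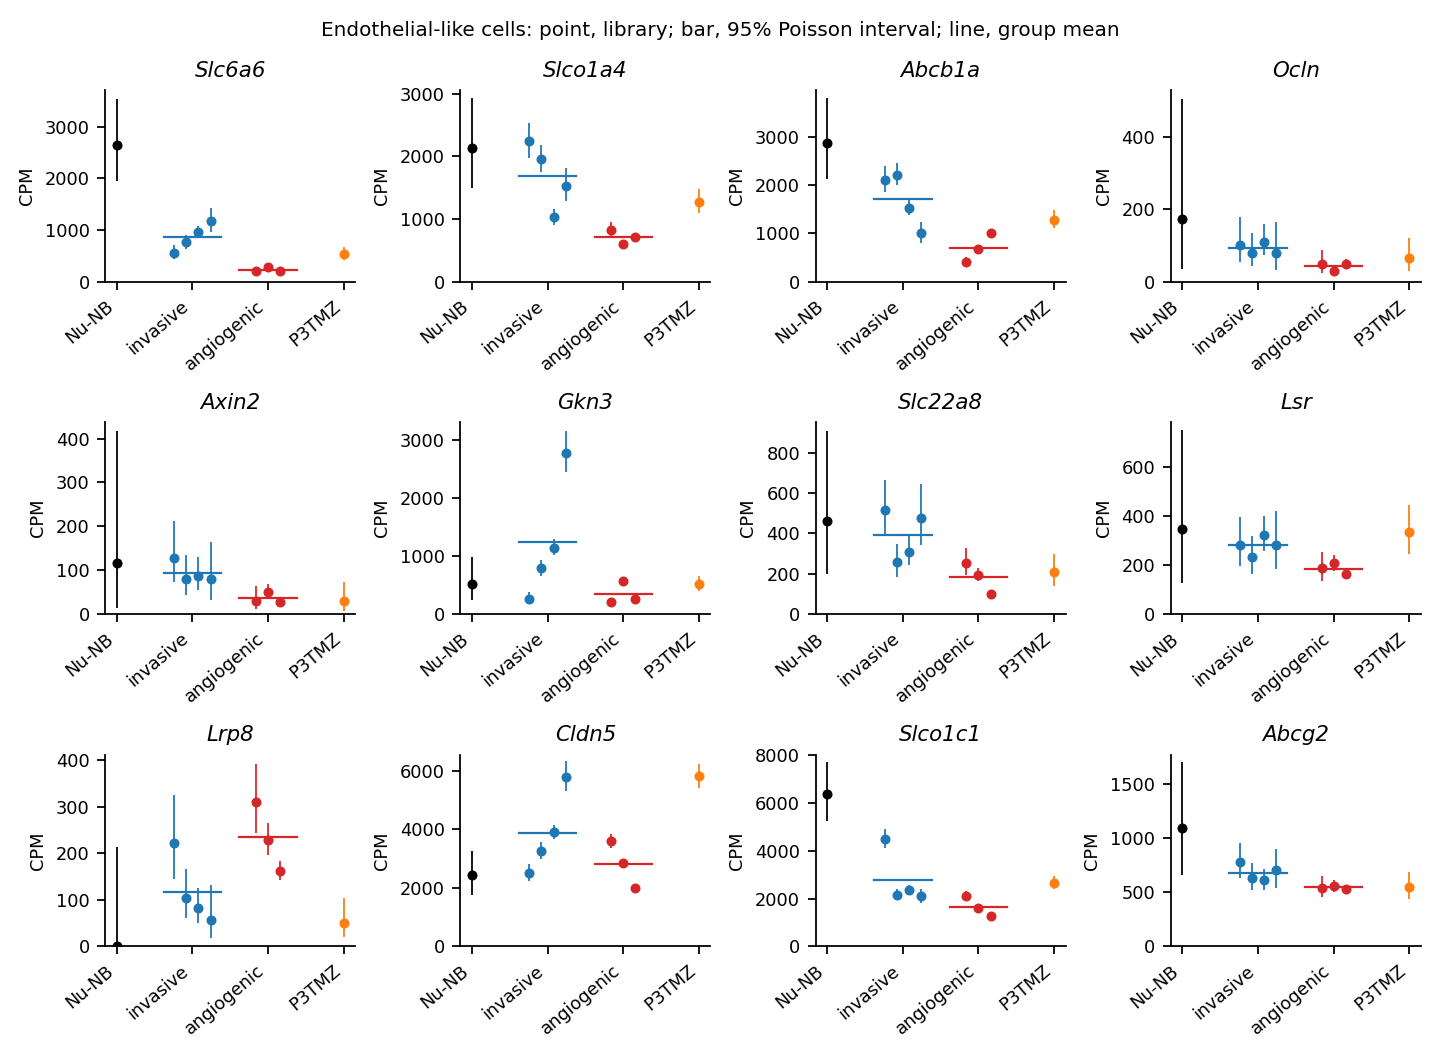
CPM of 12 barrier genes in endothelial-like cells, with each point a library, each bar its 95% Poisson interval and each horizontal line a group mean of 4 invasive (blue) or 3 angiogenic (red) PDOXs. Slc6a6 lies at 202 to 279 CPM in angiogenic and 557 to 1171 CPM in invasive PDOXs, and Abcg2 lies at 533 to 557 against 611 to 780 CPM.

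Slco1a4 had 2246, 1962, 1034 and 1535 CPM in P8, T101, T192 and T233 and 824, 607 and 711 CPM in P3, T16 and P13, with no overlap (log2 fold change -1.21, SE 0.32, adjusted p = 0.0673, edgeR). Abcb1a had 2108, 2218, 1535 and 1000 CPM against 412, 682 and 1011 CPM, so that P13 overlapped T233 (-1.25, SE 0.34, adjusted p = 0.0800, edgeR). DESeq2 called Slc6a6, Slco1a4 and Abcb1a, among 150 of all 4074 genes (3.68%). Axin2 had 129, 79.2, 86.1 and 79.6 CPM against 30.7, 50.05 and 27.7 CPM, with no overlap (-1.31, SE 0.35, adjusted p = 0.0751, edgeR). Ocln had 79.2 to 109.6 CPM against 29.8 to 50.1 CPM (-1.13, SE 0.33, adjusted p = 0.0925, edgeR). These low genes rest on few UMIs per library. Other settings called further barrier genes. With cells chosen by endothelial markers, edgeR also called Axin2 (adjusted p = 0.0435) and Slco1a4 (0.0499), beside 2.6% of all genes, and without T192 it also called Slco1a4 (0.0385), beside 1.64%. With no filter on low counts 5 barrier genes were among the 357 genes called of 12619 (2.83%). Besides Slc6a6 they were Abcb1a (0.0405) and Gkn3 (0.000145), both lower, and Lrp8 (0.0187) and Slc7a5 (0.0271), both higher in angiogenic PDOXs (adjusted p, edgeR). In the first endothelial cluster edgeR called 0 of 2504 genes, and each of these barrier genes had an adjusted p of 0.999.

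Slc22a8 had 256 to 514 CPM in invasive and 98.9 to 254 CPM in angiogenic PDOXs, and Lsr had 232 to 325 against 163 to 207 CPM, without overlap in either. Abcg2 also did not overlap, at a log2 fold change of only -0.29 (SE 0.26, adjusted p = 0.681, edgeR). Gkn3 had 266, 786, 1147 and 2785 CPM in P8, T101, T192 and T233 and 206, 563 and 264 CPM in P3, T16 and P13, with overlap at P8 (-1.88, SE 0.62, adjusted p = 0.138, edgeR). Its log2 fold change was -1.05 without T233 and -0.57 without T192 and T233. Lrp8 ran the other way, with 223, 104, 82.2 and 56.8 CPM against 311, 229 and 162 CPM, and P8 overlapped the angiogenic range (1.06, SE 0.37, adjusted p = 0.162, edgeR). Slc7a5 had a log2 fold change of 1.01 (SE 0.48, adjusted p = 0.350, edgeR), with P3 far above the others. Cldn5, Cdh5, Tjp1 and F11r overlapped between the groups, and the mean of Cldn5 was 3868 ± 1408 CPM (SD, n = 4) in invasive and 2810 ± 806 CPM (SD, n = 3) in angiogenic PDOXs. Lef1 and Sox17 were 348 ± 96.7 and 317 ± 111 CPM (SD, n = 4) against 256 ± 134 and 201 ± 61.9 CPM (SD, n = 3), and both overlapped.

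The promoters of Slco1a4 and Axin2 are shown because both genes were lower in angiogenic PDOXs without overlap, and because Axin2 is a Wnt target. They are the 250 bases before the start of each gene in RefSeq (GRCm38.p6), read 5' to 3' on the strand of the gene, at chr6:141856221-141856470 (minus) and chr11:108920099-108920348 (plus). The RefSeq start is the start of the GENCODE gene for Axin2 (0 bases apart) and lies 21 bases upstream of it for Slco1a4. They were searched for the letters CTTTGAT or CTTTGAA, short forms of the TCF/LEF motif, on either strand, where the reverse reads ATCAAAG or TTCAAAG, and capitals would mark a match.
Slco1a4: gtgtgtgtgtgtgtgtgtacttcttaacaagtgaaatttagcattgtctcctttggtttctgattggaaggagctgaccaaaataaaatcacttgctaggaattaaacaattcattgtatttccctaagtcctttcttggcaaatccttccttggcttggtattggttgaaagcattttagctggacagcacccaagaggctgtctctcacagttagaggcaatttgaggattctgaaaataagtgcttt
Axin2: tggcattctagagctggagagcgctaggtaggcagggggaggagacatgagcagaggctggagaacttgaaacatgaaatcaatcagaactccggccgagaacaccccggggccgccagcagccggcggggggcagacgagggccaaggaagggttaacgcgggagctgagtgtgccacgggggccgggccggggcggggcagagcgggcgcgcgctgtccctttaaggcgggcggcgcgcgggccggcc
Both windows hold 0 matches. RefSeq promoters were found for 29 of the 38 genes, 43 promoters in all, and 5 of the 43 (11.63%) held a match in the window of 250 bases before to 50 after the start, beside 2842 of 32851 promoters of all genes (8.651%). The 5 belong to Abcb1a, Slc19a3, Slc3a2, Slc7a1 and Spock2, but a RefSeq start can lie far from the GENCODE gene start, and for 27 of the 43 promoters it was within 250 bases. Of the 5, those of Slc19a3 and Spock2 were, while that of Abcb1a lay 92986 bases upstream. These matches describe letters and were not tested as binding sites.

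Endothelial-like cells formed 2 clusters, and the angiogenic PDOXs held more of the second. The first cluster (1448 cells) was led by Cxcl12, Gkn3 and Ly6c1 and held all 35 endothelial-like cells of Nu-NB. The second (775 cells) was led by Scgb3a1, Ctla2a, Cd93, Apln, Slc38a5 and Kdr, among which Apln and Kdr are known from sprouting vessels. The second cluster made up 16.43, 18.97, 10.86 and 4.386% of endothelial-like cells in P8, T101, T192 and T233 and 77.31, 47.76 and 34.7% in P3, T16 and P13. Thus every angiogenic PDOX had a larger share than any invasive one. The summed endothelial markers differed too, with 14688 to 16654 CPM in invasive, 9788 to 10706 CPM in angiogenic PDOXs and 19651 CPM in Nu-NB. Markers of other classes inside endothelial-like cells summed to 326 to 1780 CPM for mural, 322 to 1754 CPM for myeloid, 157 to 807 CPM for astrocyte, 215 to 531 CPM for oligodendrocyte, 42.9 to 749 CPM for neuronal and 0 to 83.9 CPM for fibroblast markers over the 9 libraries, with the highest neuronal sum in Nu-NB. Erythrocyte markers summed to 0 CPM in Nu-NB, T233 and P3 and up to 3959 CPM in T192 and 2039 CPM in P13, and cycling markers to 0 CPM in Nu-NB and up to 1794 CPM in P13. Choroid plexus markers summed to 177 to 557 CPM in invasive PDOXs, 637 to 943 CPM in angiogenic PDOXs and 288 CPM in Nu-NB. Their part in the differences was not tested.

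Within the first cluster Slc6a6 had 690, 958, 1238 and 1171 CPM in P8, T101, T192 and T233 and 798, 824 and 627 CPM in P3, T16 and P13 so that the groups overlapped. Its log2 fold change there was -0.46 (adjusted p = 0.999, edgeR), and edgeR called 0 genes. Of the 35 barrier genes, 1 (Slco2b1, 2.857%) was lower without overlap in that cluster, beside 2.38% of all genes. In the second cluster Slc6a6 had 112, 191 and 312 CPM in P8, T101 and T192 and 93.3, 72.7 and 68.2 CPM in P3, T16 and P13. T233 is left out of second-cluster values because it had 5 such cells.

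Over the other 6 PDOXs, 11 of 35 barrier genes (31.43%) were higher in the first than in the second cluster in each PDOX, beside 7.93% of all genes, namely Abcb1a, Abcg2, Slco1a4, Slco1c1, Slc22a8, Slc2a1, Slc6a6, Lef1, Sox17, Gkn3 and Itm2a. The medians were 2135 against 602 CPM for Abcb1a, 1715 against 707 CPM for Slco1a4, 811 against 102.5 CPM for Slc6a6 and 371 against 84.3 CPM for Sox17. Gkn3 had the widest gap, with medians of 1194 and 11.2 CPM. Lrp8 alone (2.857%) was lower in the first cluster in each PDOX, beside 7.39% of all genes, with medians of 75.5 and 219 CPM, but in P8 the clusters were nearly equal at 222.6 and 223.6 CPM. Cluster differences describe the cells that were clustered and were not tested, and Gkn3, Abcb1a and Slco1a4 are among the 10 leading genes of the first cluster and Slc38a5 among those of the second, although all were left out of the clustering.

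**Figure D4:**
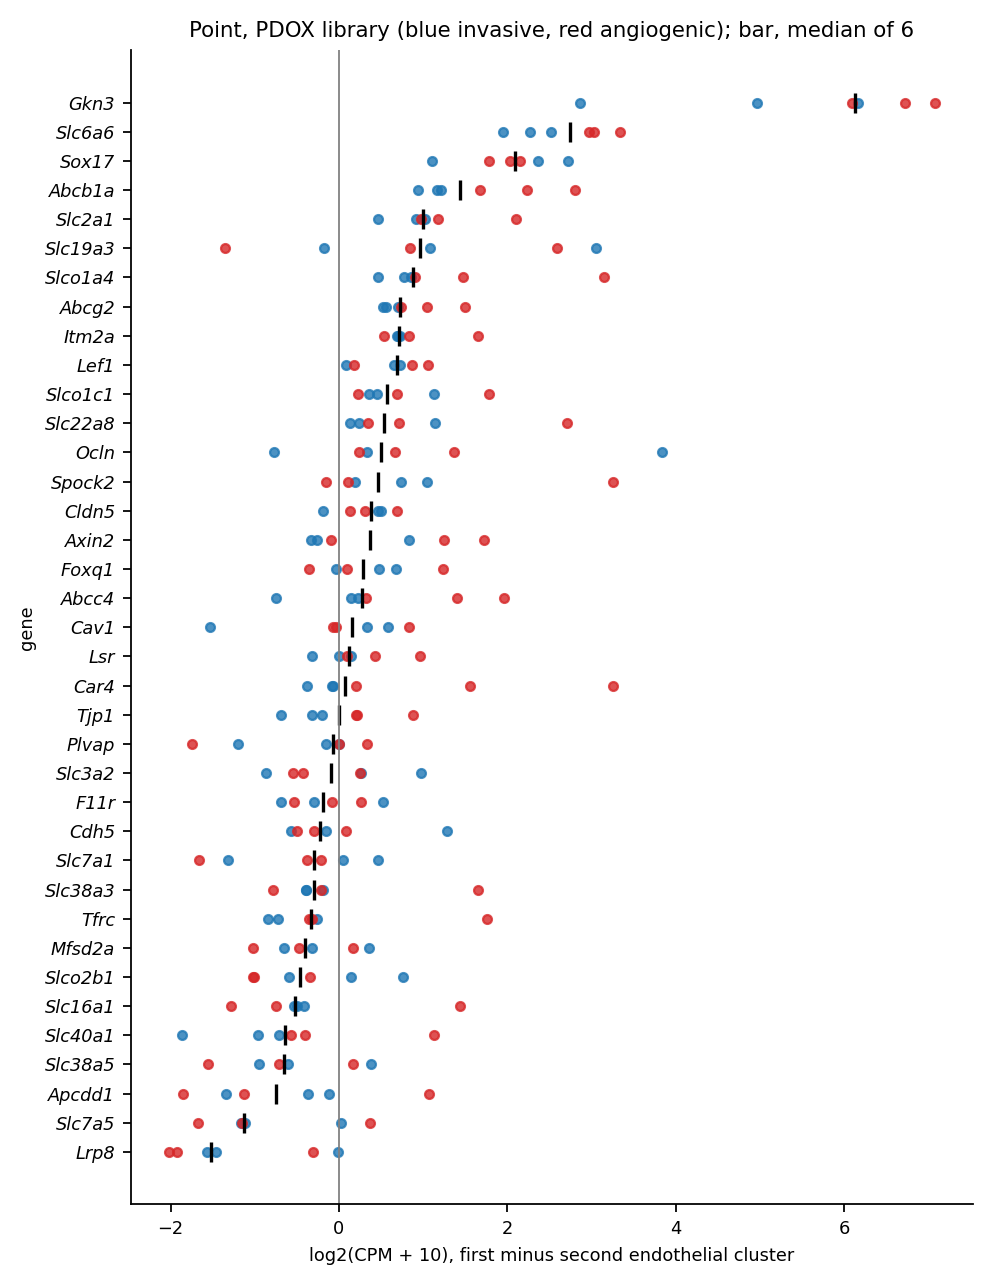
Difference of log2(CPM + 10) between the first and the second endothelial cluster for 37 barrier genes, with a point per PDOX library (blue invasive, red angiogenic) and a bar at the median of 6 PDOXs. Gkn3, Slc6a6, Sox17 and Abcb1a lie to the right of 0 in 6 of 6 PDOXs, and Lrp8 lies at or left of 0.

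Genes outside the 38 from lists of the same pathways were set beside them in the same test of angiogenic against invasive PDOXs. Of 13 other junction genes tested of 18 listed, 0 were called and the median log2 fold change was -0.30. The junction proteins Pecam1 and Esam had 474 to 798 and 488 to 780 CPM in invasive and 421 to 678 and 622 to 864 CPM in angiogenic PDOXs. Of 13 of 18 other solute carriers, 1 was called. It was Slc38a2, a sodium-coupled neutral amino acid carrier, with 30.5 to 163 CPM in invasive and 158 to 460 CPM in angiogenic PDOXs (log2 fold change 1.87, adjusted p = 0.0491, edgeR), while the median of its list was -0.27. Of 6 of 15 other ABC transporters and receptors, 0 were called (median -0.14), with Scarb1 and Igf1r, receptors of lipoproteins and of insulin-like growth factor, at 122 to 231 and 206 to 475 CPM against 90.6 to 126 and 252 to 298 CPM.

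Of 9 of 26 further Wnt pathway genes, 0 were called and the median was -0.36. Ctnnb1, beta-catenin itself, had 239 to 347 CPM in invasive and 203 to 357 CPM in angiogenic PDOXs, and Gsk3b, the kinase that marks it for decay, had 102 to 291 and 184 to 270.5 CPM. Of 9 of 12 endothelial transcription factors 0 were called (median -0.22). Of these, the flow-responsive Klf2 had 311 to 671 and 360 to 438 CPM, and Ets1 had 352 to 874 and 470 to 628 CPM. Of 15 of 19 genes of caveolae, fenestrae and leakage, 1 was called up and 1 down (median -0.42). Aplnr, the apelin receptor, had 15.7 to 34.1 CPM in invasive and 71.7 to 145 CPM in angiogenic PDOXs (2.01, adjusted p = 0.0422, edgeR). Vcam1, an adhesion molecule for leukocytes, had 137 to 859 and 48.2 to 91.0 CPM (-2.34, adjusted p = 0.0422, edgeR). Against Nu-NB, 0 genes of any of the 6 lists were called in endothelial-like cells. The log2 fold change there was positive for 9 of 15 junction genes, 11 of 16 solute carriers, 5 of 11 ABC transporters and receptors, 8 of 14 Wnt genes, 7 of 12 transcription factors and 14 of 15 leakage genes, beside 65.69% of all genes. Of these genes 2, 2, 1, 4, 0 and 8, in the same order of lists, had 0 UMIs in Nu-NB, which fixes their sign.

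The third comparison set P3TMZ against P3, with 1 library on either side and hence no test. In endothelial-like cells (139860 against 228103 UMIs), 36 barrier genes had at least 10 UMIs over both libraries. Of these, 4 (11.11%) were at least 2-fold higher in P3TMZ, near the share of all 5644 genes (9.05%), and 2 (5.556%) were at least 2-fold lower, below the share of all genes (12.8%). Abcb1a, Slc6a6, Gkn3 and Slc19a3 were higher after TMZ, and Lrp8 and Slc7a1 were lower. Abcb1a had 1287 CPM in P3TMZ and 412 CPM in P3, from 180 and 94 UMIs, a ratio of 3.12 (2.42 to 4.05). Slc6a6 had 536 against 202 CPM, a ratio of 2.66 (1.82 to 3.93), and Gkn3 had 515 against 206 CPM, a ratio of 2.50 (1.71 to 3.69). Slc19a3 had 9 and 3 UMIs, a ratio of 4.89 (1.22 to 28.1). Lrp8 was lower, at 50.05 against 311 CPM (7 and 71 UMIs, ratio 0.161, 0.0624 to 0.349), as was Slc7a1 at 286 against 719 CPM (ratio 0.398, 0.274 to 0.565).

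Cldn5 had 5813 against 3599 CPM, a ratio of 1.62 (1.46 to 1.78), and the median ratio of all genes was 0.952. The summed level of the 12 endothelial markers was also higher, at 15508 CPM in P3TMZ and 10158 CPM in P3. Myeloid markers inside these cells summed to 493.4 CPM in P3TMZ and 1100 CPM in P3, choroid plexus markers to 236 and 943 CPM, cycling markers to 28.6 and 210.4 CPM, oligodendrocyte markers to 522 and 215 CPM and erythrocyte markers to 522 and 0 CPM. Their part in the ratios was not tested. The second cluster made up 46.09% of endothelial-like cells in P3TMZ and 77.31% in P3. Within the first cluster the ratio was 1.66 (1.09 to 2.56) for Abcb1a, 1.42 (0.876 to 2.34) for Slc6a6 and 1.20 (0.819 to 1.77) for Gkn3, so that none reached 2-fold with an interval above 1. Slc7a1 had a ratio of 0.397 (0.166 to 0.889). The intervals cover counting error within these libraries and not the spread between mice.

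**Figure D5:**
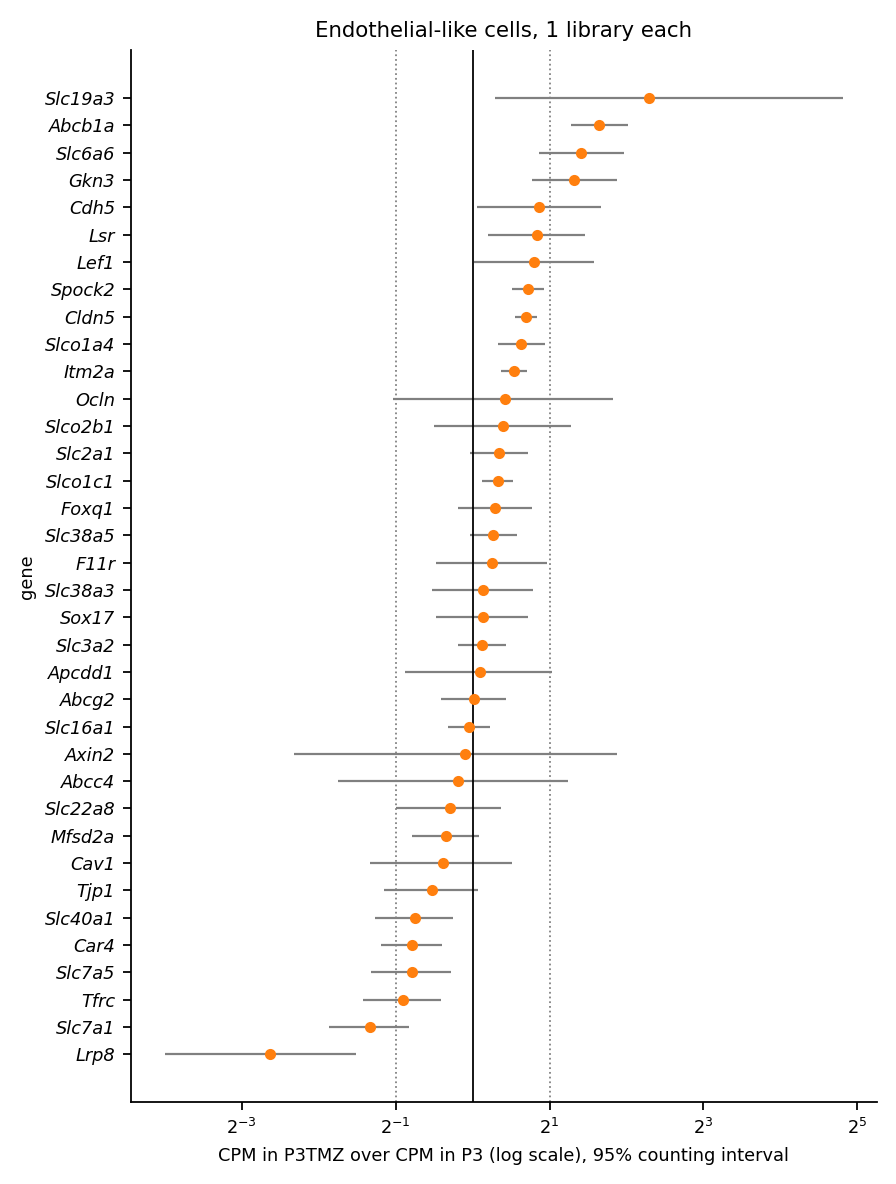
Ratio of CPM in P3TMZ to CPM in P3 (log scale) for 36 barrier genes in endothelial-like cells, with bars for the 95% counting interval and dotted lines at 2-fold in either direction. Abcb1a at 3.12, Slc6a6 at 2.66 and Gkn3 at 2.50 lie to the right of the 2-fold line, and Lrp8 at 0.161 is farthest to the left.

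The myeloid-like class (4798 cells) was examined because the medians of F11r and Slco2b1 over the PDOXs were higher there than in endothelial-like cells, although for F11r the endothelial-like class was the highest in 4 of 7 PDOXs. One of its clusters (273 cells) also met the astrocyte markers, and Lhfpl3 and Tnr, markers of OPCs, and Gfap were among its 10 leading genes. It held 106 cells of T16 and 141 of P13, at most 16 in any other library and 0 in P8, T101 and P3, so values without it are given too. The other clusters were also spread unevenly. The cluster led by genes such as P2ry12, Gpr34 and Tmem119, known from homeostatic microglia, held 91.12% of the myeloid-like cells of Nu-NB, 3.448 to 15.76% in invasive PDOXs and 8.365, 38.63 and 41.92% in the angiogenic P3, T16 and P13. A cluster led by Spp1, Ccl6 and Apoe held 1.019% in Nu-NB and 60.06, 79.13 and 79.47% in T192, T233 and P3, and one led by Ly6c2 and Plac8 held 83.29% in T101. Slco2b1 had 598 CPM in Nu-NB (525 to 678), 138, 66.7, 102.5 and 82.3 CPM in P8, T101, T192 and T233 and 78.9, 149 and 137 CPM in P3, T16 and P13. Every PDOX was below Nu-NB and outside its interval by library totals. The log2 fold change was -2.15 (SE 0.35, edgeR), with the 1 brain library on one side. Slco2b1 missed the threshold of edgeR and passed that of DESeq2, which called far more genes in this class than edgeR did. Without the mixed cluster it was 600.1 CPM in Nu-NB and 66.7 to 158 CPM in PDOXs (-2.14, adjusted p = 0.0640, edgeR). Within the P2ry12 cluster alone it was 646 CPM in Nu-NB and 438.5, 148, 78.1 and 208 CPM in P8, T101, T192 and T233 and 73.7, 182 and 294 CPM in P3, T16 and P13, from 1 UMI in T101 and in P3, and all were lower than Nu-NB (-1.40, adjusted p = 0.230, edgeR). No barrier gene was called by edgeR among the 26 tested, beside 0.0102% of all genes, with 1708 genes at an unadjusted p under 0.05. The fitted change was positive for 21 of the 26, beside 5508 of all 9790 genes, and of the 9 with an unadjusted p under 0.05, 6 were higher and 3 (Slco2b1, Slc40a1 and Tjp1) lower in PDOXs. The higher ones were Slc3a2 and 5 genes with few UMIs. Itm2a and Slco1a4 had 0 UMIs in Nu-NB and 12.1 to 55.9 and 6.24 to 59.2 CPM in PDOXs. Tested genes with 0 UMIs in Nu-NB passed the filter only through the PDOXs, so that their sign in the count of 21 was fixed in advance. Slc7a1, Slc16a1 and Tfrc had 2 or 3 UMIs in Nu-NB (4.90 to 7.35 CPM) and 11.5 to 46.0 CPM in PDOXs. F11r had 316 CPM in Nu-NB and 42.1 to 229 CPM in PDOXs. Slc40a1, which macrophages use to release iron, had 159 CPM in Nu-NB and 20.8 to 80.3 CPM in PDOXs (-1.42, SE 0.59, adjusted p = 0.252, edgeR), and within the P2ry12 cluster the change was -0.32 (adjusted p = 0.889, edgeR). Slc3a2 had 137 CPM in Nu-NB and 173 to 264 CPM in PDOXs (1.06, SE 0.43, adjusted p = 0.239, edgeR).

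Between angiogenic and invasive PDOXs, edgeR called no barrier gene among 23 tested in myeloid-like cells, beside 0% of all 8615 genes, although 803 genes (9.321%) had an unadjusted p under 0.05 and DESeq2 called 63, none of them a barrier gene. Of the 23 barrier genes, 5 (21.74%) had such a p, each with higher values in angiogenic PDOXs, namely Lrp8, Slc38a3, Slco1c1, Slc40a1 and Mfsd2a. Slco1c1 had 18.3, 31.6, 20.8 and 50.7 CPM in P8, T101, T192 and T233 and 92.1, 110.7 and 92.95 CPM in P3, T16 and P13 (log2 fold change 1.68, adjusted p = 0.225, edgeR). Lrp8 had 1.41 to 7.02 CPM against 16.8 to 23.0 CPM (2.34, adjusted p = 0.225, edgeR) and Slc38a3 had 3.51 to 9.01 CPM against 13.2 to 33.5 CPM (1.88, adjusted p = 0.225, edgeR), from few UMIs. Without the mixed cluster 0 of 7809 genes were called. Slco1c1 then had 16.2 to 49.5 CPM against 92.1, 50.9 and 35.0 CPM, so that the groups overlapped (1.07, adjusted p = 0.876, edgeR), as they did for Slc38a3 and Mfsd2a. Slc40a1, at a log2 fold change of 1.32 in the whole class (adjusted p = 0.225, edgeR), did not overlap without the mixed cluster (1.58, adjusted p = 0.395, edgeR). It then had 44.3, 21.1, 20.2 and 29.1 CPM in P8, T101, T192 and T233 and 69.1, 88.0 and 95.7 CPM in P3, T16 and P13. Within the P2ry12 cluster the groups overlapped, with 172, 0, 234 and 0 CPM in P8, T101, T192 and T233 and 295, 67.0 and 137 CPM in P3, T16 and P13, each from at most 11 UMIs except 42 in P13. Within the Spp1 cluster they did not, with 15.2 to 44.7 CPM in invasive and 52.1 to 109.3 CPM in angiogenic PDOXs, from 1 to 11 UMIs each. Astrocyte markers summed to 412 to 1076 CPM inside the whole class in invasive PDOXs, 122 CPM in P3, 4362 CPM in T16 and 4273 CPM in P13, and without the mixed cluster to 412 to 814, 122, 1125 and 999 CPM. Choroid plexus markers summed to 167 CPM in Nu-NB, 348 to 2868 CPM in invasive PDOXs, 10205 CPM in P3, 2869 CPM in T16 and 1341 CPM in P13. Their part in the result was not tested. Endothelial markers summed to 88.2 CPM in Nu-NB and 221 to 635.5 CPM in the PDOXs, against at least 9788 CPM in endothelial-like cells.

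In astrocyte-like cells, whose end feet cover the vessels, the comparison used 6 PDOXs because P3 had 4 such cells. Its 3 clusters held 425, 270 and 160 cells of Nu-NB but 322, 46 and 26 of T16 and 34, 10 and 1 of T101. Slc38a3 had 937 CPM in Nu-NB (862 to 1017). Its PDOX values were 543, 400, 164 and 299 CPM in P8, T101, T192 and T233 and 158 and 242 CPM in T16 and P13. Each was lower than Nu-NB, at a log2 fold change of -1.70 (SE 0.47, adjusted p = 0.381, edgeR). Slco1c1 had 1893 CPM in Nu-NB, 1398, 367, 357 and 359 CPM in P8, T101, T192 and T233 and 590 and 645 CPM in T16 and P13. It was also lower in 6 of 6, with P8 apart from the others (-1.57, SE 0.54, adjusted p = 0.388, edgeR). Axin2 had 62.4 CPM in Nu-NB and at most 29.9 CPM in PDOXs (-1.61, SE 0.72, adjusted p = 0.437, edgeR). Myeloid markers inside the astrocyte-like class summed to 614 CPM in Nu-NB and 715 to 5521 CPM in the 6 PDOXs, and their part was not tested.

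No barrier gene was called in astrocyte-like cells against Nu-NB (14 tested, beside 0% of 5698 genes, with 613 or 10.76% at an unadjusted p under 0.05, against 3 or 21.43% of the barrier genes, and 1 called by DESeq2). Between angiogenic and invasive PDOXs none of 9 was called, beside 0% of 4064 genes, with 154 at an unadjusted p under 0.05 and 1 called by DESeq2. Slc16a1 was the only 1 of the 9 with such a p, with 126, 233.4, 125 and 79.8 CPM in P8, T101, T192 and T233 and 35.2 and 48.9 CPM in T16 and P13. The groups did not overlap, at a log2 fold change of -1.42 (SE 0.47, adjusted p = 0.768, edgeR).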

How the data were processed

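The deposited files hold raw UMI counts per gene and cell barcode, which the authors made from Drop-seq reads by STAR alignment (demultiplexing by bcl2fastq 2.0, builds GRCm38 and mm10, as the processing notes list them), without normalization. Filters required 200 detected genes and allowed 30% mitochondrial UMIs per cell, and per library the top 5% of scrublet scores was removed. Clustering (Python 3.11.15, scanpy 1.11.5, leidenalg 0.10.2) used 2000 variable genes, 30 components, 20 neighbors, resolution 1 and seed 1, with genes in at least 5 cells. A cluster was named when at least 3 markers, and at least 50%, were detected in 10% of its cells or more and stood 2-fold above the median cluster. This naming rule was revised 3 times with cluster names and class sizes in view and before values of the 38 genes were looked at. The 38 genes, the marker and gene lists, the tests and the named genes (all 38, and of each list those called or the 2 with the highest mean) were chosen with earlier results of these data known.

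UMIs were summed per library and class with at least 10 cells and tested with the quasi-likelihood method of edgeR 4.0.16 on R 4.3.3 (filterByExpr, TMM), adjusted over all genes tested (Benjamini-Hochberg), with DESeq2 1.42.0 as an alternative. Tests ran on genes listed in all libraries compared, and the edgeR step was tested on simulated data. Ratios of P3TMZ to P3 have exact 95% intervals. Gene positions and promoters are from GRCm38 annotation and RefSeq, and scipy 1.17.1 gave the intervals. Other doublet, cell, gene and depth settings, other scalings, and leaving out each PDOX were tried. The separate data of human tumor cells, and T347 and T470, were not analysed here.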

Additional observations from a re-analysis of the deposited data

Results flagged for a closer look

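In endothelial-like cells, 74 groups of library values (37 barrier genes with at least 10 UMIs in a library, over the 7 untreated PDOXs and over the 4 invasive ones) were searched for a library that lies far from the rest by Dixon's test, which chance alone gives for about 1 in 20 groups (3.7 of 74). There were 10. P8 stood above the others for Slco1c1 (4510 CPM against at most 2365 CPM, both over 7 and over 4 PDOXs), for Plvap (137 CPM, from 16 UMIs, against at most 51.4 CPM over 7 and 22.7 CPM over 4 PDOXs) and, over the invasive PDOXs, for Axin2 (129 CPM, from 15 UMIs, against at most 86.1 CPM). P8 is the only PDOX sorted by FACS. P3 stood above the others for Mfsd2a (609 CPM against at most 284 CPM) and Slc7a5 (530 CPM against at most 195 CPM). T233 stood above the others for Gkn3 (2790 CPM against at most 1147 CPM) and, over the invasive PDOXs, for Itm2a (3770 CPM against at most 2871 CPM). P13 stood below the others for Spock2 (605 CPM against at least 1484 CPM).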

How the results depend on the processing

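Of 502 values of barrier genes under the alternatives, 485 kept their direction and their side of the threshold, for the genes with an unadjusted p under 0.05. Another 9 newly passed it, 8 no longer passed it and 0 turned around. Slc6a6 was the only barrier gene called in a main fit, so that the others had no call to lose. All 8 losses were of Slc6a6. They came without T233, P3, T16 or P13, with T192 and T233 summed or left out together, after thinning and in the first cluster. The 485 therefore do not measure how stable that call was. Over all barrier genes tested in endothelial-like cells, 86 of 622 values against Nu-NB and 28 of 620 between growth types had the opposite sign. DESeq2 called 2 genes in endothelial-like cells against Nu-NB and 150 between growth types, 160 and 63 in myeloid-like cells and 1 and 1 in astrocyte-like cells. With no filter on low counts, 357 genes were called between growth types in endothelial-like cells, 45 against Nu-NB and 24 between growth types in astrocyte-like cells. With at least 500 detected genes, 21 genes were called between growth types in endothelial-like cells and 1 against Nu-NB in astrocyte-like cells. The endothelial-like growth comparison gave 43 genes with no doublet removal, 4 with T192 and T233 summed, 34 with both left out, 0 in cells thinned to 500 UMIs and 0 in the first endothelial cluster. Without the mixed myeloid-like cluster the counts in myeloid-like cells were unchanged at 1 and 0, and within the P2ry12 cluster they were 11 and 2. Leaving out each PDOX gave 1 to 56 genes between growth types in endothelial-like cells (1 without P3, 3 without T233, 4 without T16, 14 without T101, 25 without P8, 26 without P13), 1 to 27 in myeloid-like cells against Nu-NB, 0 to 170 between growth types (170 without P3), and 0 to 13 and 0 to 122 in astrocyte-like cells. Barrier genes lower than Nu-NB in each PDOX by library totals numbered 17 in the first cluster (beside 38.09% of all genes), 12 after thinning (27.88%), 15 with no doublet removal (37.21%) and 18 to 21 when a PDOX was left out (39.52 to 43.56%), and after TMM 7 (20.21%). Those higher numbered 6 (22.85%), 10 (30.22%), 7 (27.34%) and, after TMM, 9 (40.14%). Over these settings and the cells chosen by markers, 7 genes stayed lower and 4 (Abcc4, Slc38a5, Lrp8 and Car4) higher, 2 of the 4 with 0 UMIs in Nu-NB. A further 5 genes (Ocln, Lsr, Tfrc, Cav1 and Slc19a3) were lower than Nu-NB in each PDOX under 1 of these settings and higher in each under another. Those lower in every angiogenic PDOX numbered 2 after thinning (3.216%), 1 in the first cluster (2.381%), 12 with T192 and T233 left out (20.67%) and 8 to 13 when a PDOX was left out (9.008 to 11.41%, with 13 without P3). In the first cluster 1 barrier gene, Slc7a1, was at least 2-fold apart between P3TMZ and P3 with a counting interval that left out 1. The cause of these shifts was not tested. The first-cluster, total-UMI, mixed-cluster, P2ry12-cluster and non-overlap settings and leaving out T192 and T233 together were chosen after seeing the data. At 500 detected genes Nu-NB kept 6 endothelial-like cells and gave no value. No paired analysis was possible because the replicate numbers follow accession order only. With 35 Nu-NB endothelial-like cells, 1 brain and 7 PDOXs, genes with few UMIs have wide intervals and small differences were not detectable.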
